A study of Mus musculus with 9 samples.

Results

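Dbp, Tef and Hlf encode the PAR bZIP transcription factors, and Nfil3 encodes their antagonist. These 4 genes, of 19505 gene symbols that the array annotation names, were followed in the tibialis anterior of the mouse, a hindlimb muscle made mainly of fast fibres. They were picked by name from the annotation of the array. The rule for a gene with several probe sets, to read the one of highest mean over the 9 arrays, selected on measured values but was not needed, since each of the 4 genes had 1 probe set. The genes were nevertheless chosen with results of these arrays known, so their levels and differences are given as a description, with no test.

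Whole muscles came from C57/BL6 mice aged 2 months, and each sample was hybridised to an Affymetrix Clariom S mouse array, which reads gene expression as 1 log2 signal per probe set. The MCU knockout group (MCU-/-/MCUb+/+), the MCUb knockout group (MCU+/+/MCUb-/-) and the control group (MCU+/+/MCUb+/+) had 3 arrays each. MCU forms the pore of the mitochondrial calcium uniporter, and MCUb is its paralogue. By its title, the study asked how MCUb acts on mitochondrial oxidative phosphorylation. How the alleles were made, in which cells they were deleted, the sex of the mice and the hour of harvest are not given in the sources used here. Nor is it stated whether each sample was a different mouse.

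The PAR bZIP factors are output genes of the circadian clock. The activators CLOCK and BMAL1 drive them through E-boxes, and their proteins then bind D-boxes in genes of metabolism and in clock genes. NFIL3, also called E4BP4, binds the same D-boxes and represses, and its own gene is under REV-ERB and ROR control, so that in mouse liver its level runs opposite to that of the activators over the day. Dbp in particular has a daily rhythm of high amplitude in most mouse tissues, skeletal muscle among them.

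Between 45.3% and 45.9% of the 22206 probe sets tested lay above background on an array, and each array correlated with the other 8 at a mean r between 0.978 and 0.988. Control replicate 3 had the lowest correlation and, at 0.436, the lowest array quality weight, so values without it are given where they bear on a result. Mcu, the deleted gene, stood at 6.94 ± 0.13 (SD, n = 3 arrays, as for every group mean here) in the MCU knockout, 10.86 ± 0.18 in the MCUb knockout and 10.60 ± 0.31 in control. Mcub was not analysed here. Uty and Kdm5d, which are Y-linked, averaged 7.56 on replicate 2 and 7.24 on replicate 3 of the MCU knockout. They averaged 7.80 on replicate 1 of the MCUb knockout, against 3.01 to 3.89 on the other 6 arrays. Y-linked signal and Y-linked level refer below to these genes alone. Eif2s3y, also Y-linked and measured, was above background on 0 arrays. It stood at 3.75 and 3.01 on those MCU knockout arrays and at 3.09 on that MCUb knockout array. The defining markers of fast fibres were all above background on every array (8 of 8, Ckm, Myh4 and Pvalb among them). None of the 5 measured lymphocyte markers was above background on any array.

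The promoter windows of the 4 genes are shown because the 3 PAR bZIP genes were lower by a like amount in 1 of the comparisons below. The antagonist differed there by less than its SE (standard error). They come from RefSeq (GRCm38.p6), where all 4 genes matched with 5 windows in all, and run from 250 bases before the start site to 50 after it, 5′ to 3′ along the gene. Capitals mark each match to the E-box CACGTG, the D-box (TTATGTAA or TTACGTAA), AGGTCA or the cAMP response element TGACGTCA. Both strands were searched, and 0 matches overlapped another motif. AGGTCA is only a part of the ROR element, and the rest of that element was not searched for.
Dbp (chr7:45704997-45705296, plus strand): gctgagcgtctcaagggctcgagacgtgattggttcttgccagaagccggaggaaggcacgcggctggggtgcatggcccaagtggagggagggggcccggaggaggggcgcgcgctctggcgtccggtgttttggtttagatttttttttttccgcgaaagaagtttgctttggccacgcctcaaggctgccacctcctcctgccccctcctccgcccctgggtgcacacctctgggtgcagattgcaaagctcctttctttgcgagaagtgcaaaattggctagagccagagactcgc
Tef, downstream start (chr15:81811164-81811463, plus strand): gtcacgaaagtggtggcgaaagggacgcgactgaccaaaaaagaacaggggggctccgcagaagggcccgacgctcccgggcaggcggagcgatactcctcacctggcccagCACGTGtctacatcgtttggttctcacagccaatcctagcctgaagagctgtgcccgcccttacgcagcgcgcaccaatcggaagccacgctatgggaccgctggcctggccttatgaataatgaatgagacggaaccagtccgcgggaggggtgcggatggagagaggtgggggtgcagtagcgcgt
Hlf (chr11:90390868-90391167, minus strand): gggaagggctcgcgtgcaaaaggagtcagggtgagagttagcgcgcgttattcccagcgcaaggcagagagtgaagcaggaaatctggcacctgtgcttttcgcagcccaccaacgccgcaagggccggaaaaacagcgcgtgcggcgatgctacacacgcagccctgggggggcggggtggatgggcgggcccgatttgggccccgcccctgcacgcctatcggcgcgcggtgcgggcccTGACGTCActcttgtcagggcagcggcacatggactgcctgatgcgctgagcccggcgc
Nfil3 (chr13:52980990-52981289, minus strand): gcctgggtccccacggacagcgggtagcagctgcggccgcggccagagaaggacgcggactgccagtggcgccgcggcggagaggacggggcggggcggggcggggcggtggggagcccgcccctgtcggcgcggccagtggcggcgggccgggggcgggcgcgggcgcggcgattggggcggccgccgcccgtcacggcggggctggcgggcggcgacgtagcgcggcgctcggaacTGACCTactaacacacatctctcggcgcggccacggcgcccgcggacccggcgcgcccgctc

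Tef held the E-box in both of its windows, with its first base at position -138 in the downstream window and at -127 in the upstream one (chr15:81802423-81802722), counting the start site as 0. Hlf held the cAMP response element at -9. Nfil3 held AGGTCA at -12, as TGACCT on the strand shown, which does not show a full ROR element. Dbp held 0 of the 4 motifs in this window. Among all 32851 windows searched, 7.15% held the E-box and 1.06% the D-box. AGGTCA was present in 16.3% and the cAMP response element in 1.79%. Of the 15 clock genes described below that have a window, 4 held the E-box and 1 the D-box. A clock gene was counted if any of its windows held a match, so these counts are not shares of windows. These matches describe letters only, and a window without a match says nothing of sites elsewhere in the gene.

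Dbp, a PAR bZIP activator (probe set TC0700000861.mm.2, chromosome 7), was lower in the MCU knockout than in either other genotype. Its log2 level was 13.93, 14.09 and 13.64 on the MCU knockout arrays, 14.84, 15.10 and 14.71 on the MCUb knockout arrays and 14.52, 14.90 and 14.84 on the control arrays. Every MCU knockout array lay below every other array, while the MCUb knockout and control arrays overlapped. The means were 13.89 ± 0.23 in the MCU knockout, 14.88 ± 0.20 in the MCUb knockout and 14.75 ± 0.20 in control. The difference between MCU knockout and control was -0.87 on the log2 scale (standard error, SE, of the fit 0.20), or 1.82-fold lower, and it was -0.82 (SE 0.22) without control replicate 3. Against the MCUb knockout the MCU knockout was 1.99-fold lower, at -0.996 (SE 0.20). The difference between MCUb knockout and control was 0.13 (SE 0.20). In whole muscle, fewer cells of a type and less RNA per cell cannot be told apart.

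The markers of slow and IIa fibres had a lower mean on the MCU knockout arrays than on the control arrays. This mean log2 level over the 6 measured markers was 9.04, 9.04 and 8.23 on the MCU knockout arrays, 8.53, 9.88 and 9.42 on the MCUb knockout arrays and 9.46, 9.74 and 9.62 on the control arrays. It was thus below every control array on all 3 MCU knockout arrays and on 2 of the MCUb knockout arrays. The markers did not go one way. In MCU knockout against control 3 of the 6 lay lower, Myh2 by -2.09, Myl2 by -2.00 and Casq2 by -2.32, while Tnnt1 (0.60), Tnni1 (0.63) and Myh7 (0.19) lay higher, and 0 passed an adjusted p of 0.05 in limma (the smallest was 0.204). Of the 6, 5 were above background on all 9 arrays and Tnni1 on 2. Their part in the level of Dbp was not tested.

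Tef, the second activator (TC1500000731.mm.2, chromosome 15), had the same order of means as Dbp with a wider spread. It stood at 6.96, 7.08 and 7.76 on the MCU knockout arrays, 8.28, 7.93 and 7.92 on the MCUb knockout arrays and 8.17, 7.33 and 7.83 on the control arrays. The MCU knockout arrays all lay below the MCUb knockout arrays, by a gap of 0.17 between the nearest pair. Control overlapped with both knockouts. The means were 7.27 ± 0.43 in the MCU knockout, 8.04 ± 0.20 in the MCUb knockout and 7.78 ± 0.42 in control. MCU knockout against MCUb knockout gave -0.78 (SE 0.27), or 1.72-fold lower. The MCU knockout differed from control by -0.51 (SE 0.27) and the MCUb knockout by 0.27 (SE 0.27). Both moved when single arrays were left out. Without MCU knockout replicate 3 the MCU knockout stood -0.76 from control, and without MCU knockout replicate 1 it stood -0.36. The MCU knockout stood -0.32 from control without control replicate 1 and -0.74 without control replicate 2, and the MCUb knockout stood 0.46 without replicate 1 and 0.04 without replicate 2.

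Hlf, the third activator (TC1100003529.mm.2, chromosome 11), was highest in the MCUb knockout. Its log2 level was 6.41, 6.71 and 7.12 on the MCU knockout arrays, 8.07, 7.01 and 7.52 on the MCUb knockout arrays and 6.18, 6.63 and 6.64 on the control arrays. All MCUb knockout arrays lay above all control arrays, and the MCU knockout overlapped with both groups. The lower of these levels were near the background limits of 5.87 to 5.92, although above them on all 9 arrays. The means were 6.75 ± 0.35 in the MCU knockout, 7.53 ± 0.53 in the MCUb knockout and 6.48 ± 0.26 in control. The MCUb knockout stood 1.05 above control (SE 0.28), or 2.07-fold, and 1.13 (SE 0.32) without control replicate 3. The MCU knockout stood -0.79 from the MCUb knockout (SE 0.28) and 0.26 from control (SE 0.28). Without MCUb knockout replicate 1, the highest array, the difference between the knockouts was -0.52.

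Among the arrays of each knockout, those with Y-linked signal had the higher Hlf level. In the MCU knockout these arrays stood at 6.71 and 7.12 and the other at 6.41, and in the MCUb knockout the array with Y-linked signal stood at 8.07 and the others at 7.01 and 7.52. With that Y-linked level added to the fit as a covariate, the Hlf difference between MCU knockout and control was -0.16 (SE 0.27), against 0.26 without it, and that between MCUb knockout and control was 0.84 (SE 0.23). No control array carried Y-linked signal. With the covariate Dbp in the MCU knockout stood -0.82 from control, and Tef stood -0.77 from control and -0.91 from the MCUb knockout.

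Nfil3, the repressor (TC1300002013.mm.2, chromosome 13), did not separate any pair of genotypes. It stood at 10.43, 9.08 and 10.21 on the MCU knockout arrays, 9.87, 10.16 and 10.19 on the MCUb knockout arrays and 10.33, 9.36 and 9.98 on the control arrays. MCU knockout replicate 2 and control replicate 2 were the lowest arrays. All 3 groups overlapped, with means of 9.91 ± 0.73 in the MCU knockout, 10.07 ± 0.17 in the MCUb knockout and 9.89 ± 0.49 in control. The differences were 0.02 for MCU knockout against control, 0.19 for MCUb knockout against control and -0.17 between the knockouts, each with an SE of 0.35. This SE was the widest of the 4 genes. NFIL3 is also known from lymphoid cells, and of 7 measured genes of that setting 2 were above background on all arrays and 4 on none.

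**Figure D1:**
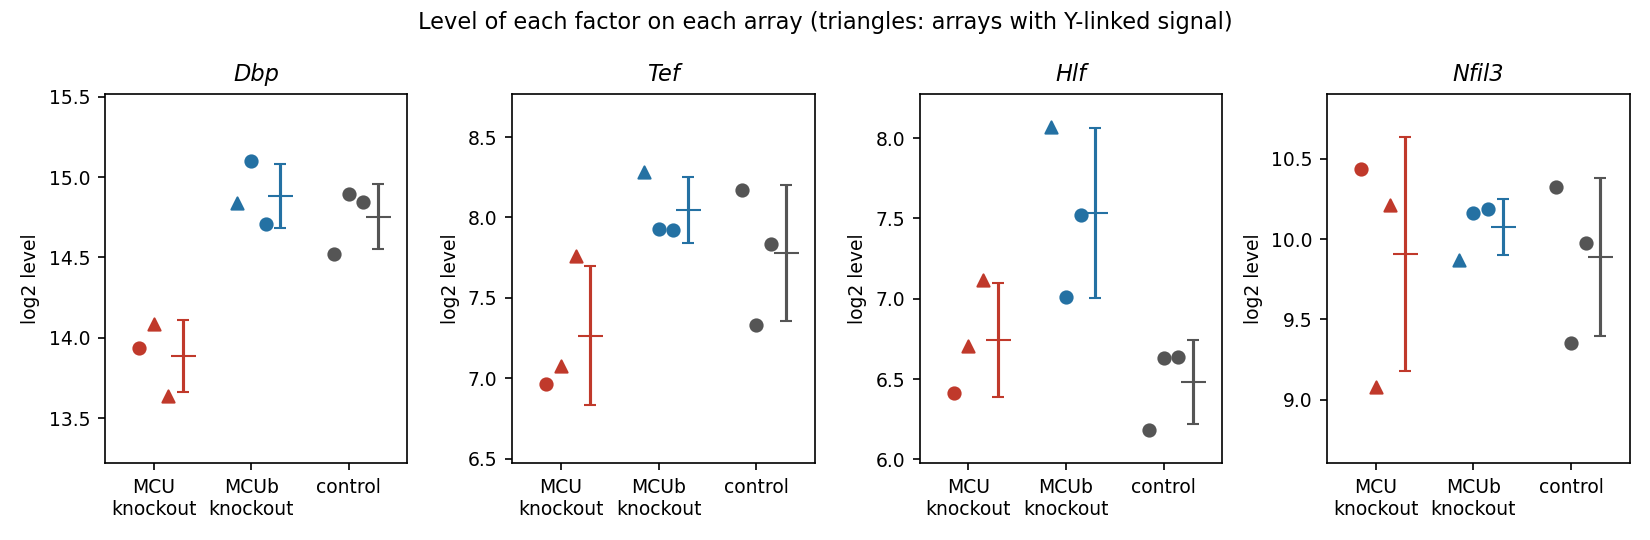
Log2 level (vertical axis, 2.3 log2 units high in each panel) of Dbp, Tef, Hlf and Nfil3 on each array, for MCU knockout, MCUb knockout and control. Points are arrays, triangles the 3 arrays with Y-linked signal, and bars the mean ± SD of 3 arrays; the MCU knockout points of Dbp lie between 13.64 and 14.09, below all others.

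All 3 activators were lower in the MCU knockout than in the MCUb knockout by a like amount, between 0.78 and 0.996 on the log2 scale. Nfil3 stood at -0.17 there, with an SE of 0.35, so its direction was not resolved. They came to this from different sides. Dbp was mostly low in the MCU knockout and Hlf mostly high in the MCUb knockout. The Tef means lay on both sides of control, by distances that moved when single arrays were left out. In the fit across all probe sets 0 of the 4 genes passed an adjusted p of 0.05 in any of the 3 comparisons. In MCU knockout against control 0.063% of all probe sets passed as higher and 0.0766% as lower, in MCUb knockout against control 0.00901% and 0.0135%, and in MCU knockout against MCUb knockout 0.063% and 0.0946%. Groups did not overlap for 1 of the 4 genes in MCU knockout against control (Dbp), where this held for 13.4% of all probe sets. The count was 1 of 4 in MCUb knockout against control (Hlf, with 12.8% of all probe sets) and 2 of 4 between the knockouts (Dbp and Tef, with 12.8%). The 3 comparisons share arrays and are not independent of each other.

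**Figure D2:**
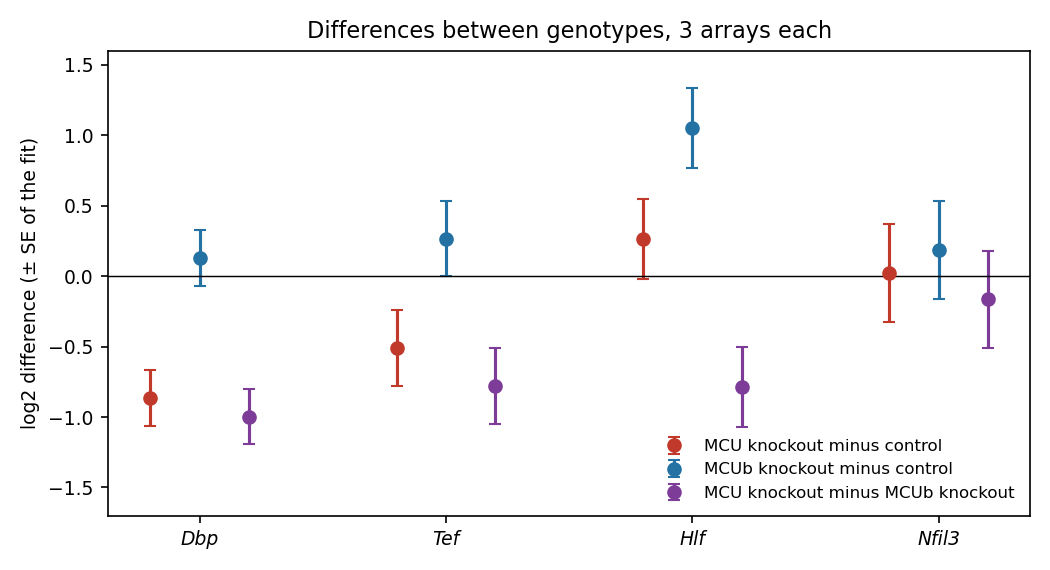
Log2 difference (vertical axis) of each gene in the 3 comparisons, with the SE of the limma fit as bars, from 3 arrays per genotype. Dbp, Tef and Hlf lie between -0.78 and -0.996 for MCU knockout minus MCUb knockout, and the 3 values of Nfil3 lie within 1 SE of 0.

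The 4 genes did not vary as a unit from array to array. Over the 9 arrays Pearson's r of the log2 levels was 0.49 for Dbp with Tef, 0.49 for Tef with Hlf and 0.23 for Dbp with Hlf. With the group means removed, r was -0.73 for Dbp with Tef, 0.35 for Tef with Hlf and -0.29 for Dbp with Hlf. Within genotypes, the arrays with more Dbp thus tended to have less Tef. Nfil3 had an r of -0.11 with Dbp, 0.39 with Tef and -0.02 with Hlf. The arrays of a genotype share it, so these values describe 9 arrays and no more.

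Among 7813 other named genes above background on all arrays, those with the highest r to Dbp were Mitf (0.943), a bHLH transcription factor, Gadd45gip1 (0.942), of the mitochondrial ribosome, Nfu1 (0.942), an iron-sulphur cluster protein, Rsph3a (0.942) and the deleted gene Mcu (0.942). All 5 were low on the MCU knockout arrays. Mitf differed by -0.98 between MCU knockout and control and by -0.01 between MCUb knockout and control, close to the -0.87 and 0.13 of Dbp. With the group means removed, r to Dbp lay between 0.43 (Mcu) and 0.68 (Gadd45gip1). For Tef the genes were Slc25a51 (0.943), Sacm1l (0.911), Tsc2 (0.904), Il34 (0.904) and Kat8 (0.891). For Hlf they were Jam3 (0.934), a junctional adhesion molecule, Phka1 (0.922), the muscle subunit of phosphorylase kinase, Zfp599 (0.902), Dcun1d4 (0.883) and Map4 (0.878). For Nfil3 they were Itga9 (0.927), Gdpd1 (0.892), Trappc9 (0.891), Qtrt1 (0.890) and Abcg2 (0.883). None of these 20 was a clock gene of the list below. Of the clock genes, Csnk1d (0.865) and Cry2 (0.824) had the highest r with Dbp, Per1 (0.813) with Tef and Cry1 (0.861) with Hlf. All these values come from 9 arrays of 3 genotypes and stand as a description.

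**Figure D3:**
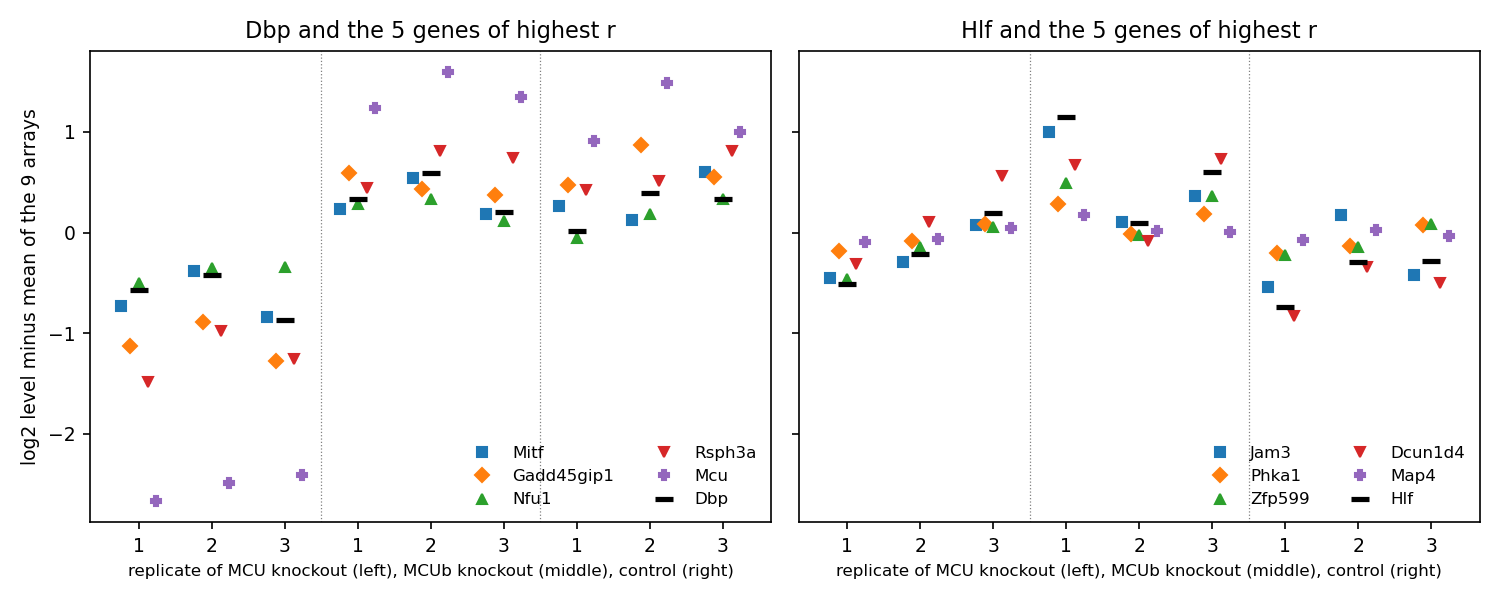
Log2 level minus the mean of the 9 arrays (vertical axis) for Dbp (left panel) and Hlf (right panel) and the 5 genes of highest r with each, on the arrays of MCU knockout, MCUb knockout and control (horizontal axis). Each symbol is 1 array; all genes of the left panel lie below their mean on the 3 MCU knockout arrays.

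Other clock genes were compared from a list of 20, of which 18 were measured and 13 were above background on all arrays. Between the knockouts, 3 fell in the MCU knockout relative to the MCUb knockout and 0 rose in limma at an adjusted p of 0.05, against 0.0946% and 0.063% of all probe sets. Each of these 3 encodes a repressor of CLOCK and BMAL1, and other repressors of the list did not pass. Ciart stood at 6.05 ± 0.47 in the MCU knockout and 8.42 ± 0.26 in the MCUb knockout (log2 change -2.37, SE 0.26, adjusted p = 0.0037). Per2 stood at 5.85 ± 0.52 in the MCU knockout and 7.60 ± 0.22 in the MCUb knockout (-1.75, SE 0.26, adjusted p = 0.0265). Cry2 stood at 8.45 ± 0.10 in the MCU knockout and 9.75 ± 0.26 in the MCUb knockout (-1.30, SE 0.20, adjusted p = 0.0336). Ciart and Per2 were above background on 2 of the 3 MCU knockout arrays. The arrays of Ciart read 6.50, 5.57 and 6.09 in the MCU knockout, 8.29, 8.25 and 8.71 in the MCUb knockout and 7.30, 6.87 and 7.42 in control, so that no group overlapped with another. The means of all 3 genes had the order of Dbp and Tef, with the MCU knockout lowest and the MCUb knockout highest. Per1 and Per3 had this order too, and differed by -0.89 and -0.80 between the knockouts. Cry1 (-0.27 between the knockouts) and Bhlhe41 (-0.37) were instead lowest in control, and Bhlhe40 (-0.53) was highest in control. At an unadjusted p under 0.05 there were 3 higher and 5 lower of the 18, where 5.7% of all probe sets passed. Ciart alone stayed past the adjusted threshold with the Y-linked covariate, with the replicate block, and when MCU knockout replicate 2 or 3 or any 1 of the 3 MCUb knockout replicates was left out. Without MCU knockout replicate 1, Ciart and Per2 stayed.

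The activators of the loop and the REV-ERB genes, named here for their role, did not have that order of means. Nor did they share 1 order among themselves. Arntl, which encodes BMAL1, stood at 8.81 ± 0.92 in the MCU knockout, 7.72 ± 0.32 in the MCUb knockout and 8.996 ± 0.43 in control. Clock stood at 13.42 ± 0.08 in the MCU knockout, 12.96 ± 0.14 in the MCUb knockout and 13.29 ± 0.13 in control. Neither passed in any comparison, and between the knockouts the adjusted p in limma was 0.721 for both. Nr1d1, the repressor REV-ERB alpha, fell in the MCUb knockout, to 11.71 ± 0.40 against 13.73 ± 0.40 in control (-2.02, SE 0.27, adjusted p = 0.0462), and stood at 12.99 ± 0.27 in the MCU knockout. It was the only 1 of the 18 to pass there, against 0.00901% of all probe sets higher and 0.0135% lower. That call was lost when control replicate 1 or 3 or any 1 of the 3 MCUb knockout replicates was left out, with the Y-linked covariate, and with only the 2 groups in the fit. Nr1d1 thus had its lowest group mean where Hlf had its highest, in the MCUb knockout. Within that knockout the 2 genes ran the other way. Replicate 1 was highest for both (Nr1d1 12.17, Hlf 8.07) and replicate 2 lowest for both (11.43 and 7.01). In MCU knockout against control Nr1d1 differed by -0.75 (SE 0.27). Nr1d2, the second REV-ERB gene, was instead lowest in the MCU knockout. It stood at 12.55 ± 0.22 there, 12.81 ± 0.17 in the MCUb knockout and 12.92 ± 0.21 in control. The Nr1d2 difference from control was -0.38 (SE 0.20) in the MCU knockout and -0.11 (SE 0.20) in the MCUb knockout.

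Between MCU knockout and control 0 of the 18 clock genes passed in limma, with 1 higher and 6 lower at an unadjusted p under 0.05, where 10.1% of all probe sets passed. The 1 higher gene, Fbxl21, was above background on 0 arrays. The median log2 difference of the 18 was -0.32, against -0.02 over all probe sets. Ciart (-1.14), Cry2 (-0.82) and Per2 (-0.90) had the smallest p, with adjusted p of 0.204, 0.251 and 0.335 in limma. Between MCUb knockout and control the median was 0.07 against -0.03 over all probe sets, with 5 higher and 3 lower at an unadjusted p under 0.05, where 8.11% of all probe sets passed. These counts include Fbxl21 (higher) and Npas2 (lower), each above background on 0 arrays. Ciart stood at 1.22 in MCUb knockout against control (adjusted p = 0.385 in limma) and Per2 at 0.85 (adjusted p = 0.534). Between the knockouts the median was -0.27 against 0.01.

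**Figure D4:**
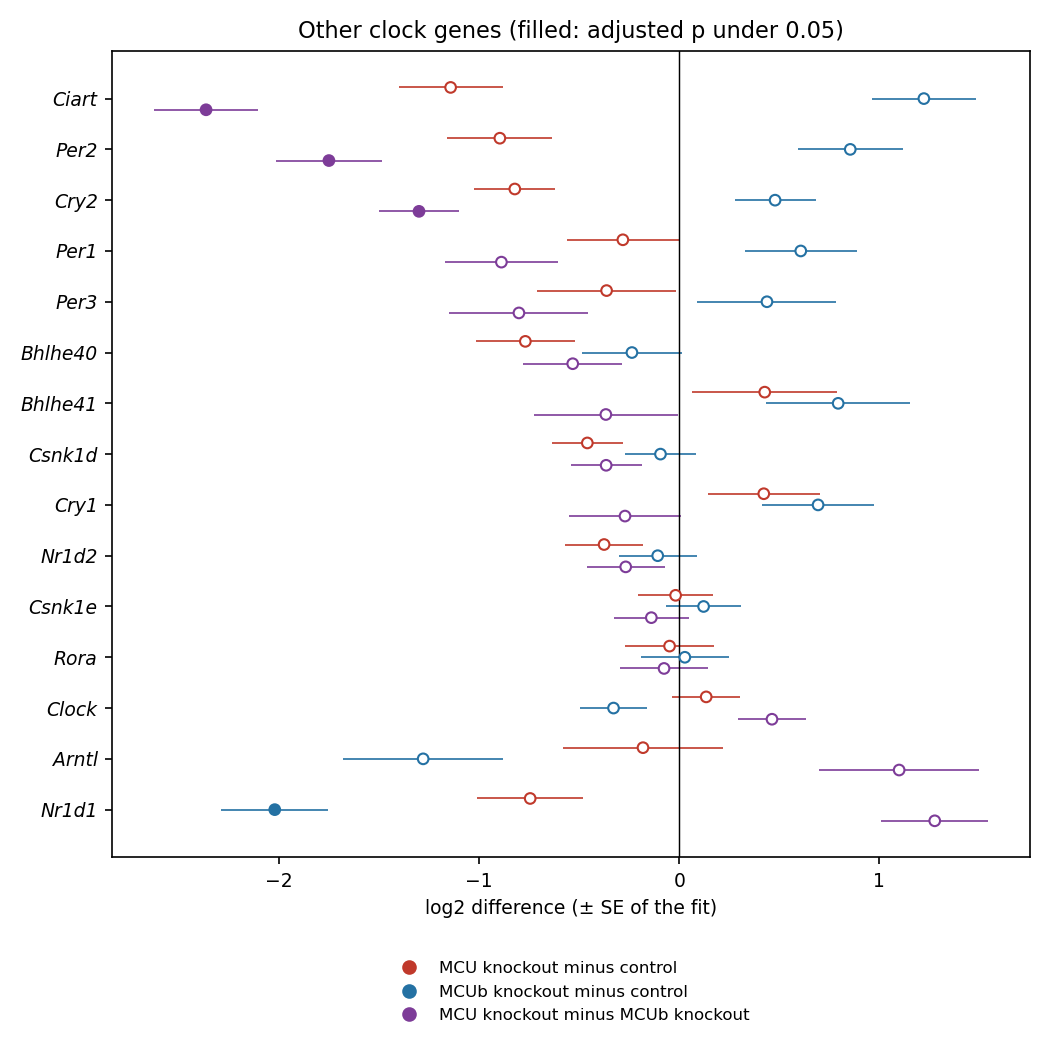
Log2 difference (horizontal axis, with SE of the fit) of the 15 clock genes above background on 1 array or more, in the 3 comparisons. Filled points passed an adjusted p of 0.05: Ciart, Per2 and Cry2 for MCU knockout minus MCUb knockout and Nr1d1 for MCUb knockout minus control.

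Candidate targets of the PAR bZIP factors were listed from general knowledge of mouse liver, brain, kidney and intestine, with Slc16a1 and Aadat the least certain of them, and most were below background in this muscle. Of 23 listed, 22 were measured, 7 were above background on all arrays and 14 on none. In limma 0 of the 22 passed in any comparison, with 3 lower and 0 higher in MCU knockout against control at an unadjusted p under 0.05, 0 in MCUb knockout against control, and 1 lower between the knockouts. Of all probe sets 10.1%, 8.11% and 5.7% passed in these 3 comparisons, so that the 3 of 22 stood near the share over all probe sets. The median difference of the targets was -0.22 in MCU knockout against control, where that of all probe sets was -0.02. It was -0.17 in MCUb knockout against control (-0.03 over all probe sets) and -0.03 between the knockouts (0.01 over all probe sets). Most of these targets were below background. Over the 7 above background on all arrays the median was -0.70 in MCU knockout against control, where all such probe sets had -0.02. That median was the value of Ppara (SE 0.63), which read 9.44, 6.42 and 8.37 on the MCU knockout arrays. Pdxk (-0.85), Abcb1a (-0.82) and Slc16a1 (-0.73) lay below it, and Lpl (-0.29), Acot2 (-0.15) and Alas1 (0.04) above it. For these 7 the median was -0.24 in MCUb knockout against control (0.004 over all such probe sets) and -0.34 between the knockouts (-0.02).

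Pdxk, pyridoxal kinase, which makes the active form of vitamin B6 and was described as a PAR bZIP target in mouse brain, had the smallest p. It stood at 7.15 ± 0.25 in the MCU knockout, 7.89 ± 0.20 in the MCUb knockout and 8.01 ± 0.43 in control. Its arrays read 7.42, 7.13 and 6.92 in the MCU knockout, 7.67, 8.07 and 7.94 in the MCUb knockout and 7.52, 8.34 and 8.16 in control. Every MCU knockout array lay below every other array, with a gap of 0.10 to the nearest control array. In MCU knockout against control 3 of the 22 targets did not overlap, near the 13.4% of all probe sets for which this held. The Pdxk difference from control was -0.85 (SE 0.24, adjusted p = 0.316 in limma) in the MCU knockout and -0.11 (SE 0.24, adjusted p = 0.922) in the MCUb knockout. The knockouts differed in Pdxk by -0.74 (SE 0.24, adjusted p = 0.615). Slc16a1, the lactate transporter MCT1 and an uncertain target, stood at 9.29 ± 0.18 in the MCU knockout and 10.02 ± 0.26 in control (-0.73, SE 0.25, adjusted p = 0.394). Ces1g, Cyp2c37, Fgf21, Upp2 and Aadat were among the 3 smallest p of a comparison but lay below background on all 9 arrays. The remaining targets above background on all arrays, named after their values were seen, were Alas1 of haem synthesis, Abcb1a, Ppara, Acot2 and Lpl, and none of them passed.

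**Figure D5:**
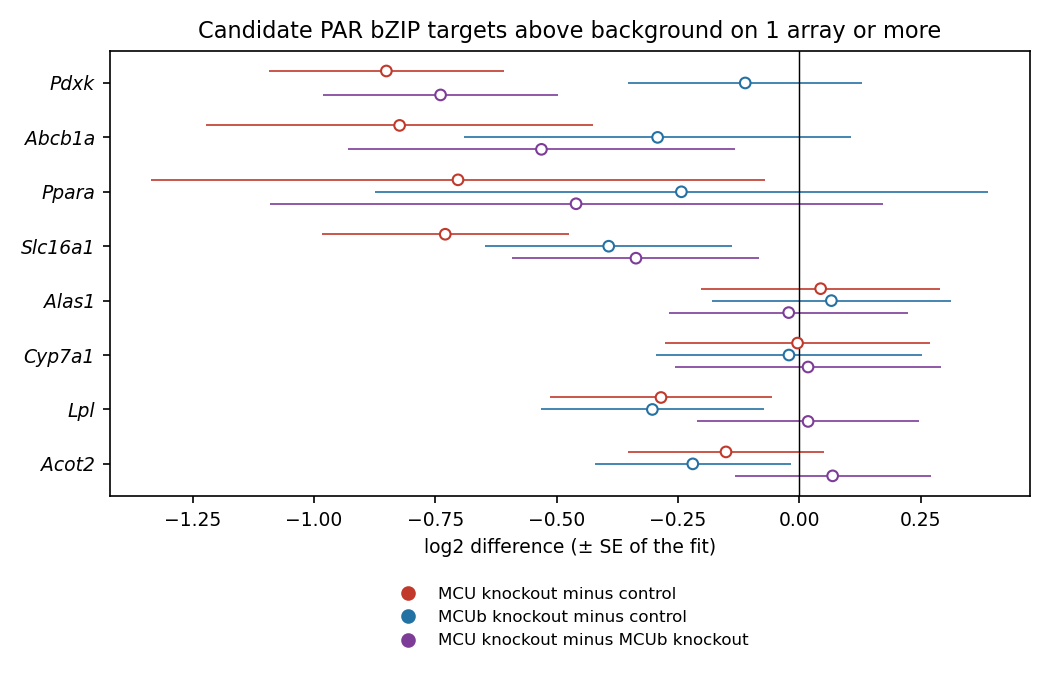
Log2 difference (horizontal axis, with SE of the fit) of the 8 candidate targets above background on 1 array or more, in the 3 comparisons. Open points did not pass an adjusted p of 0.05, which is all of them; Pdxk lies at -0.85 for MCU knockout minus control and at -0.11 for MCUb knockout minus control.

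Of the related bZIP factors, none passed. Of 10 listed C/EBP, ATF and CREB genes 9 were measured, and 0 passed in limma in any comparison, with 1 lower at an unadjusted p under 0.05 in MCU knockout against control, where 10.1% of all probe sets passed, and 0 in the other comparisons. That gene was Ddit3, which encodes CHOP, at 10.89 ± 0.34 in the MCU knockout, 11.30 ± 0.28 in the MCUb knockout and 11.71 ± 0.15 in control (MCU knockout against control -0.82, SE 0.22, adjusted p = 0.308). Cebpg stood at 0.32, Creb1 at 0.35 and Atf4 at 0.12 from control in the MCU knockout, with adjusted p between 0.594 and 0.837.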

How the data were processed

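Values were the deposited log2 signals of 9 arrays, 3 per genotype, which the authors made with Expression Console of Affymetrix (submitters' processing notes). How probes were summarised and normalized, and the logarithm's base, is not given in the sources used here; the range of 2.33 to 19.9 was read as log2. Groups came from the sample titles. Of 28846 values per array, 6640 were control features, which left 22206 probe sets, 19572 with a gene symbol, updated by gene identifier through the RefSeq table of GRCm38.p6. The background limit was the 95th percentile of 23 background sets of an array. A two-sided limma test (version 3.58.1, R 4.3.3; lmFit, then eBayes) used 3 group means and no covariate. The residual degrees of freedom were 6, the prior added 5.06, and Benjamini-Hochberg adjustment ran over all 22206 probe sets. The fit was tested on simulated data. Its p-values reflect only how far these samples differ, part of which may be technical.

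The members, the 6 pathway lists and the 9 marker lists were chosen with earlier results of these data known. The lists of targets came from general knowledge of the field. Named were the 4 members, the 3 genes of smallest p of a list in a comparison, all that passed, and the 5 genes of highest r per member. Alternatives were quantile normalization, median centring, leaving out dim probe sets, an intensity trend with robust prior, array weights, a fit of the compared groups alone, the replicate number as a block, the Y-linked level as a covariate, and leaving out single arrays. None of the 4 genes had a further probe set to try.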

Additional observations from a re-analysis of the deposited data

How the results depend on the processing

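For the 4 genes, 132 alternative values of a difference were computed, and 1 moved by more than the spread between replicates: Hlf in MCU knockout against control, at -0.16 with the Y-linked covariate. Nfil3 changed sign under 6 of its alternatives, with a range of -0.24 to 0.44 in MCU knockout against control over single arrays left out. With single arrays left out, Dbp lay between -0.98 and -0.74 in MCU knockout against control and between -1.10 and -0.87 between the knockouts, Tef between -1.03 and -0.63 between the knockouts, and Hlf between 0.78 and 1.31 in MCUb knockout against control. Over all probe sets the replicate numbers showed no pairing of the samples. Of 9 correlations between deviations of same-numbered arrays, 0 exceeded 0.1 (range -0.12 to 0.09). Correlations over all probe sets cannot show a pairing limited to some genes, which was not tested. With the replicate block the Dbp difference in MCU knockout against control was again -0.87 (SE 0.19), and of the other clock genes 1 passed between the knockouts, against 3 without it. With the Y-linked covariate that count was 1 too, it was 0 in MCUb knockout against control, and 16 probe sets passed in MCU knockout against control, against 31. With only the compared groups in the fit, 1 probe set and 0 clock genes passed in MCUb knockout against control, against 5 and 1. With array weights 61 probe sets passed between the knockouts, against 35. With single arrays left out, probe sets passing ranged from 20 (without MCU knockout replicate 3) to 98 (without control replicate 2) in MCU knockout against control, from 0 (without MCUb knockout replicate 1, MCUb knockout replicate 3 or control replicate 1) to 20 (without control replicate 2) in MCUb knockout against control, with 2 without MCUb knockout replicate 2, and from 13 (without MCU knockout replicate 3) to 27 between the knockouts, with 19 without MCUb knockout replicate 3 and 23 without replicate 2. Clock genes passing ranged from 0 to 1 in MCUb knockout against control and from 1 to 2 between the knockouts. The causes were not tested. With 3 arrays a group, precision is limited, and Nfil3 has the widest SE of the 4 genes (0.35).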

Other observations

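Among genes described as clock outputs of skeletal muscle, 2 of fuel use separated the knockouts. Pdk4, a kinase that inhibits pyruvate dehydrogenase, stood at 11.42 ± 0.41 in the MCU knockout, 9.55 ± 0.72 in the MCUb knockout and 10.41 ± 0.42 in control, and Ucp3, a mitochondrial carrier protein, at 12.13 ± 0.70 in the MCU knockout, 10.20 ± 0.57 in the MCUb knockout and 11.27 ± 0.49 in control. The knockouts did not overlap for either gene, as held for 12.8% of all probe sets. The knockouts differed by 1.87 for Pdk4 (SE 0.36, adjusted p = 0.112 in limma) and by 1.92 for Ucp3 (SE 0.39, adjusted p = 0.135), the reverse of the sign of Dbp, Tef and Hlf. Of the 10 measured muscle outputs 0 passed in any comparison, with 4 past an unadjusted p of 0.05 between the knockouts (3 higher, 1 lower), where 5.7% of all probe sets passed.

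Among 14 genes that follow the clock in many tissues, 0 passed in limma, with 4 lower and 0 higher at an unadjusted p under 0.05 between the knockouts, where 5.7% of all probe sets passed. Usp2, a ubiquitin protease, had the smallest p between the knockouts, at 15.19 ± 0.26 in the MCU knockout against 15.88 ± 0.03 in the MCUb knockout (-0.69, SE 0.18, adjusted p = 0.423 in limma). Tsc22d3, a glucocorticoid-induced gene, was instead higher in both knockouts, at 12.50 ± 0.29 in the MCU knockout, 12.74 ± 0.15 in the MCUb knockout and 11.80 ± 0.22 in control, with differences from control of 0.70 (adjusted p = 0.333) and 0.94 (adjusted p = 0.411).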
